A study of Mus musculus with 8 samples.

Results

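Metabotropic glutamate receptors were followed across dopaminergic neurons of the newborn mouse midbrain, through the 7 genes Grm2, Grm3, Grm4, Grm5, Grm6, Grm7 and Grm8. A gene was included where a probeset of the array carried its symbol and no other, and each of the 7 had 1 such probeset, out of 35512 on the array (19938 genes with such a probeset in all). These receptors are G-protein coupled receptors with a large extracellular domain that binds glutamate, and unlike the ionotropic receptors they form no channel. Group I receptors, here Grm5, couple to Gq and phospholipase C. Group II (Grm2 and Grm3) and group III (Grm4, Grm6, Grm7 and Grm8) couple to Gi/o proteins, lower cyclic AMP and, at many nerve terminals, reduce transmitter release. In the midbrain, glutamate acting on such receptors adjusts the firing of dopaminergic neurons and the release from the terminals that contact them.

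The cells were live EGFP+ neurons sorted by flow cytometry from microdissected substantia nigra compacta (SNc) or ventral tegmental area (VTA) of C57Bl/6 pups on postnatal days 1 to 4. The 4 groups, with 2 arrays each, were SNc WT and VTA WT, from Pitx3+/+;Th-EGFP+/- pups, and SNc KO and VTA KO, from Pitx3-/-;Th-EGFP+/- pups. All groups therefore carried 1 copy of the Th-EGFP transgene, and any cell in which it was active could be sorted. Pitx3 encodes a transcription factor on which ventral SNc neurons depend for survival, and by the account of the study such neurons are gone from the SNc of null pups when they are born, whereas the VTA still holds its own. SNc KO thus differed from SNc WT in the neurons that remained as well as in genotype. The study compared SNc WT with VTA WT, and KO with WT in each region. Each array was made from RNA of several pooled batches of sorted cells, and no source states that both pools of a group were of different animals. Hence p-values measure the spread between these arrays alone, which may be technical. In pooled RNA, fewer cells of a type and less RNA per cell cannot be told apart.

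Values are RMA signals on the log2 scale, 1 for each probeset and array. All 10 dopaminergic markers examined reached the signal minimum of 60 (linear scale) in at least 1 group, with Th between 10.01 and 10.34 on the 8 arrays. The signal of Pitx3 itself lay between 7.63 and 8.10 and was not lower on the arrays labelled KO, and since the probed part of the gene is not given, it checked no label. The VTA KO arrays differed most from each other, with a standard deviation of 0.376 over the probesets tested, against 0.241 to 0.252 in the other groups. Among 10 dopaminergic markers limma called 1 in SNc KO (0.149% of all probesets), the autoreceptor gene Drd2, which fell by 0.98 (adjusted p = 0.0381). It called 0 in VTA KO (0.00904% of all). At an unadjusted p under 0.05, 4 were lower in SNc KO (3.8% of all probesets) and 3 in VTA KO (5.51%), with 0 higher in each. Markers of other cells gave no call for oligodendrocytes (6 tested), pericytes (8) or endothelium (2) in the comparisons of the study. Of 2 microglial and macrophage markers tested, Mrc1 was called higher in SNc WT (1.26 over VTA WT, adjusted p = 0.0263 from limma) and fell by 1.40 in SNc KO (adjusted p = 0.0381). Of all probesets, 0.0814% were called higher in the first contrast and 0.0769% lower in the second. The other, Cx3cr1, differed in the same pair of contrasts by -0.037 and 0.18 (adjusted p = 0.941 and 0.903). Pericyte sums over 8 genes on the linear scale were 614.6 to 722 in SNc WT and 1675 to 1866 in SNc KO. They were 1616 to 2220 in VTA WT, and the VTA KO arrays lay apart at 2112 and 433.6. In SNc KO the list had a median difference of 0.79, with 2 of 8 higher and 0 lower at an unadjusted p under 0.05 (4.82% and 3.8% of all probesets). Of the 8, Rgs5 had a mean log2 signal of 8.05 in SNc WT and 10.07 in SNc KO, and signals of 10.29 and 6.22 in VTA KO. The part of these markers in the receptor differences was not tested.

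Of the 7 receptor genes, 6 reached the signal minimum in at least 1 group and were tested among 22112 probesets with limma, a linear model with a moderated variance. Calls were made where the p adjusted by Benjamini-Hochberg was under 0.05. In SNc KO versus SNc WT, 1 of the 6 was called, Grm8, where 0.149% of all probesets tested were called. In VTA KO versus VTA WT limma called 0 of the 6 (0.00904% of all), and 1, Grm8, had an unadjusted p under 0.05. In SNc WT versus VTA WT it called 0 (0.439% of all), with Grm3 and Grm7 at an unadjusted p under 0.05. In SNc KO versus VTA KO it called 0 (0.149% of all), with Grm3 at an unadjusted p under 0.05. The study set other thresholds, namely a fold of 1.5 or more, an unadjusted p of 0.05 or less and a signal of 60 or more. With limma's p, these were met by Grm3 and Grm7 in SNc WT versus VTA WT (6.62% of all probesets), by Grm8 in both KO comparisons (3.6% in SNc and 4.35% in VTA), and by Grm3 in SNc KO versus VTA KO (6.96%).

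**Figure D1:**
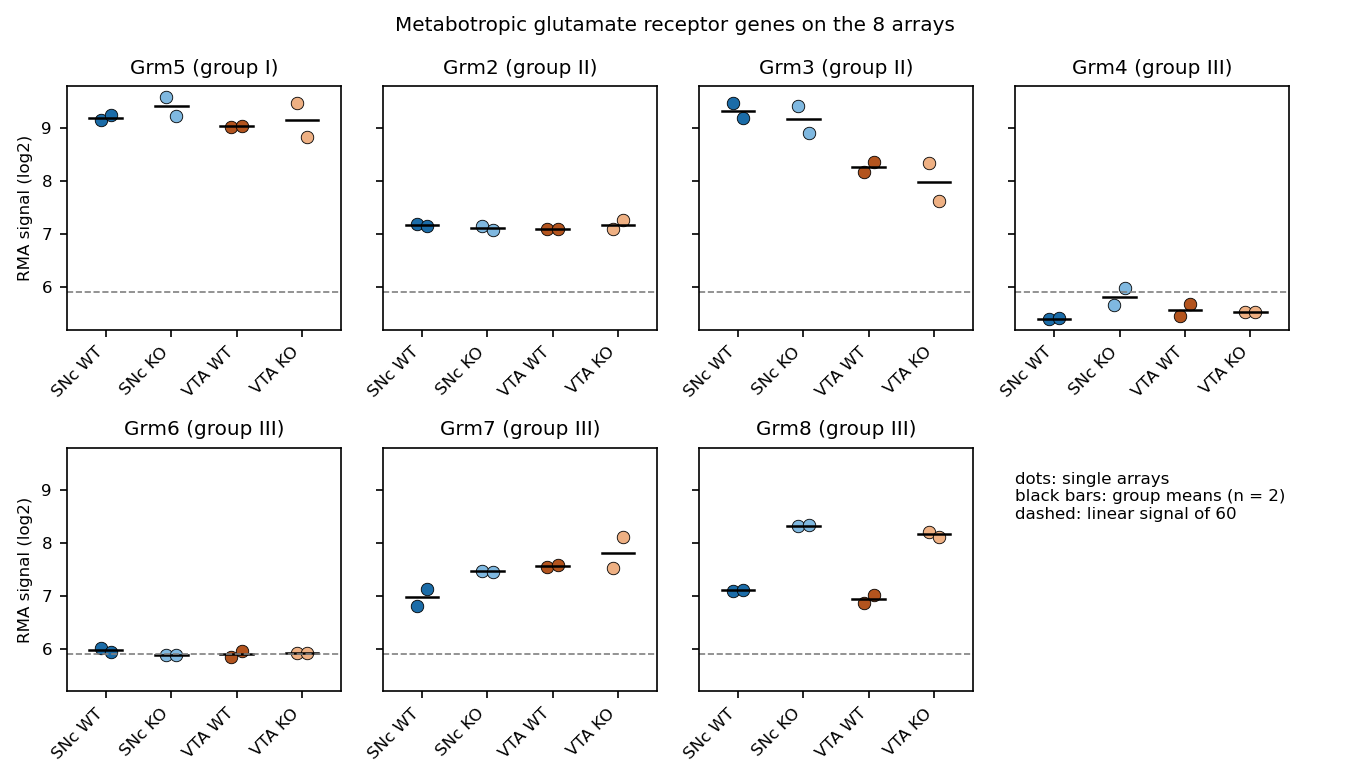
RMA signal (log2) of the 7 receptor genes on each of the 8 arrays, by group. Dots are arrays, black bars are means of 2 arrays, and the dashed line is a linear signal of 60. Grm8 sits above 8.1 on all 4 KO arrays and below 7.2 on all 4 WT arrays, Grm3 is higher in SNc than in VTA, and Grm4 lies under the dashed line on 7 of 8 arrays.

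Grm8, a group III receptor that sits mostly in presynaptic membranes and responds to low concentrations of glutamate, was higher without Pitx3 in both regions and by nearly the same amount. On the log2 scale its signals in SNc were 7.09 and 7.12 for WT, then 8.32 and 8.33 for KO. In VTA they were 6.86 and 7.01 for WT, then 8.21 and 8.11 for KO. The group means were 7.10 ± 0.023 and 8.33 ± 0.012 in SNc and 6.94 ± 0.11 and 8.16 ± 0.067 in VTA (SD, n = 2 arrays each). Every KO array thus lay above every WT array, as it did for 1.96% of the probesets tested.

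In SNc KO cells Grm8 rose by a log2 difference of 1.22 (standard error 0.11, 95% interval 0.97 to 1.48), or 2.33-fold, with an adjusted p of 0.0237 from limma. In VTA KO cells the difference was also 1.22 (standard error 0.11, interval 0.97 to 1.48), and it missed the threshold with an adjusted p of 0.0514. The unadjusted p was 1.7e-05 in each. Adjustment depends on the p-values of all probesets, of which 33 were called in the SNc comparison and 2 in that of VTA. The effect in SNc minus that in VTA was 0.00054, with an interval from -0.36 to 0.36 (adjusted p = 0.9995 from limma), where 0% of all probesets were called and 0 of the 6 receptors had an unadjusted p under 0.05. Averaged over both regions, Grm8 rose by 1.22 (interval 1.04 to 1.40, adjusted p = 0.00623), the 1 receptor called of 6, where 0.276% of all probesets were called. Between regions of the same genotype its differences were 0.16 in WT (interval -0.092 to 0.42) and 0.16 in KO (interval -0.092 to 0.42), and neither passed the test (adjusted p = 0.445 and 0.434 from limma).

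The size of the Grm8 difference hardly moved when arrays were left out, but its call did. Without 1 of the SNc WT, SNc KO or VTA WT arrays the difference in SNc stayed between 1.21 and 1.24 while the adjusted p lay between 0.0993 and 0.233, and without either or both VTA KO arrays it was 0.0321. In VTA the difference passed without VTA KO replicate 1 (1.17, adjusted p = 0.0457 from limma) but not without any other single array, where it lay between 1.15 and 1.30 with adjusted p-values between 0.0510 and 0.370. The call averaged over both regions was lost without either SNc WT array, either SNc KO array or VTA WT replicate 1, with differences of 1.18 to 1.23 and adjusted p-values between 0.0510 and 0.0666.

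**Figure D2:**
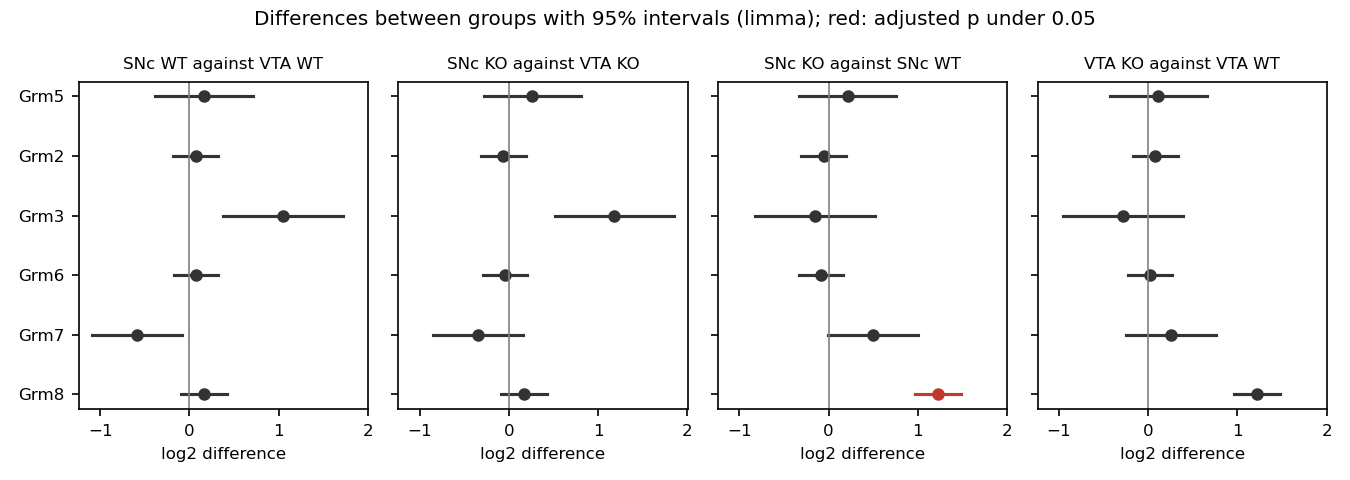
Log2 difference (dots) and 95% interval (lines) of the 6 tested receptor genes in 4 comparisons, from limma. Red marks an adjusted p under 0.05, reached by Grm8 in SNc KO versus SNc WT. The intervals of Grm8 in both KO comparisons span 0.97 to 1.48, and those of Grm3 lie above 0 in both comparisons of SNc with VTA.

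Since Grm8 differed with the loss of a transcription factor, the sequence around its annotated starts is shown. RefSeq (GRCm38.p6) gives 3 starts for Grm8 on the minus strand of chromosome 6, and each window below runs 5′ to 3′ on that strand from 250 bases before the start, in lower case, to 50 bases from the start on, in capitals. The probeset gives 1 value for the gene and does not separate transcripts from these starts.
Grm8 most upstream start, chr6:28135097-28135396: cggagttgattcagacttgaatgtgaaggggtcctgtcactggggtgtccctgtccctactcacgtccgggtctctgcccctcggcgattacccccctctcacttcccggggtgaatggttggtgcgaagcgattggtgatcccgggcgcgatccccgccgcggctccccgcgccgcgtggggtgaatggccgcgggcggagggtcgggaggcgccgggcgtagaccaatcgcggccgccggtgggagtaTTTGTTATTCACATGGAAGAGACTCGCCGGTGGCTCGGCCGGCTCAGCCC
Grm8 middle start, chr6:28134372-28134671: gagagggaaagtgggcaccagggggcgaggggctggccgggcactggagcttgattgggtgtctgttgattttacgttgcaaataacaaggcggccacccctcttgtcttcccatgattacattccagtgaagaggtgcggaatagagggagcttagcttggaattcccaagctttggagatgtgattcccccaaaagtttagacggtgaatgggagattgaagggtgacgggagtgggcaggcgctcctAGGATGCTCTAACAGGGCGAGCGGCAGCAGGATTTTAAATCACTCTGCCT
Grm8 most downstream start, chr6:28126377-28126676: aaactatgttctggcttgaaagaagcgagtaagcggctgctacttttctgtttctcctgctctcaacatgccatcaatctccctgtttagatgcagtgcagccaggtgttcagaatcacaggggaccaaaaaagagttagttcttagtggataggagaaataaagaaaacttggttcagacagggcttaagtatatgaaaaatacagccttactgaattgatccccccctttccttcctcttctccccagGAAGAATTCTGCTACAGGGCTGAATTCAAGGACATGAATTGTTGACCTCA
The most upstream window held 33 CG dinucleotides and 67% G or C, against medians of 7 and 52.7% over 32851 such windows of the genome. The middle window held 10 and the most downstream 2. A site known for Pitx proteins was then sought within such windows only, so sites elsewhere and binding itself were not tested. The letters TAATCC, the site that Pitx proteins are known to bind, were searched on both strands and were found in 0 of the 3 windows, in 0 of all 8 windows of the 5 receptor genes with an entry in the table (Grm2, Grm3, Grm6, Grm7 and Grm8; Grm4 and Grm5 had none), and in 7.06% of all windows.

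Other transmitter genes were read on the same arrays, since the gate could hold other neurons. In pooled RNA their signals cannot be assigned to other neurons or to the dopaminergic neurons themselves. Among 14665 probesets with 1 gene symbol, the one whose signal followed Grm8 most closely over the 8 arrays was Slc32a1, the vesicular transporter for GABA and glycine (Pearson r = 0.98, a description over 8 arrays that fall into 4 groups). Its signals were 8.16 and 8.28 in SNc WT, 9.08 and 9.23 in SNc KO, 8.18 and 8.14 in VTA WT, and 8.99 and 8.80 in VTA KO. It rose by 0.84 averaged over both regions (adjusted p = 0.0301 from limma), where 0.14% of all probesets were called higher. The differences were 0.94 in SNc and 0.73 in VTA (adjusted p = 0.0727 and 0.185).

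Of the 7 GABAergic markers, 6 had a probeset and 4 were tested. In each KO comparison limma called 0 of the 4, and Slc32a1 and Gad2, a GABA-synthesising enzyme, were higher at an unadjusted p under 0.05 (4.82% of all probesets in SNc and 4.73% in VTA). Gad1, the other such enzyme, had differences of 0.24 and 0.14 in SNc and VTA (adjusted p = 0.854 and 0.856 from limma). Tal1, a lineage factor, had 0.22 and -0.10 (adjusted p = 0.647 and 0.785), and Gata3 and Sox14, which mark GABAergic lineages of the midbrain, lay under the signal minimum in every group. The summed linear signal of the 6 genes was 939.6 to 1012 in SNc WT, 968.1 to 973.4 in VTA WT, 1376 to 1489 in SNc KO and 1263 to 1448 in VTA KO. The sum over 10 dopaminergic markers moved the other way, from 8524 to 9149 in SNc WT and 7430 to 7545 in VTA WT to 6131 to 6791 in SNc KO and 6090 to 6252 in VTA KO. Its members did not all fall. The mean of Slc6a3 went from 11.0 to 10.0 in SNc and from 10.4 to 9.5 in VTA. That of Th went from 10.18 to 10.09 and from 10.14 to 10.25, and that of Foxa2 from 7.21 to 7.37 and from 7.54 to 7.27. The median differences of the 10 were -0.22 in SNc KO and -0.14 in VTA KO. The sum over 5 glutamatergic markers, of which Slc17a6 alone was tested, was 592.6 to 691.7 in SNc WT, 991.8 to 1136 in VTA WT, 1160 to 1205 in SNc KO and 1153 to 1282 in VTA KO. The part of these markers in the Grm8 difference was not tested.

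**Figure D3:**
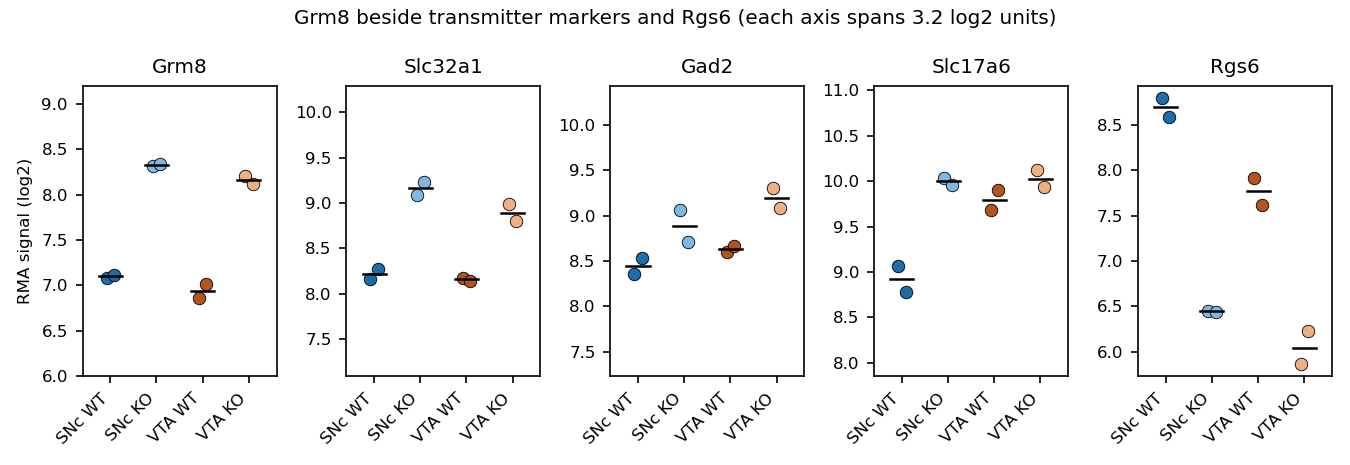
RMA signal (log2) of Grm8, the GABA markers Slc32a1 and Gad2, the glutamate transporter gene Slc17a6 and Rgs6 on each array (dots) with means of 2 arrays (bars). Each panel spans the same range on its own axis. Grm8, Slc32a1, Gad2 and Slc17a6 are each higher on all 4 KO arrays than on any WT array, as were 1.96% of the probesets tested. Slc17a6 is lowest in SNc WT, and Rgs6 is lower on all 4 KO arrays.

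Grm7, a group III receptor of the active zone of nerve terminals with a low affinity for glutamate, had its lowest signals in SNc WT. They were 6.81 and 7.13 there, 7.47 and 7.46 in SNc KO, 7.54 and 7.58 in VTA WT, and 7.52 and 8.11 in VTA KO. Every SNc array lay below every VTA array, as it did for 8.17% of probesets, but the nearest arrays, at 7.47 in SNc KO and 7.52 in VTA KO, were close. The difference of SNc WT from VTA WT was -0.59 (interval -1.09 to -0.084, adjusted p = 0.216 from limma). That of SNc KO from SNc WT was 0.49 (interval -0.010 to 0.997, adjusted p = 0.590), and that of VTA KO from VTA WT was 0.26 (interval -0.25 to 0.76, adjusted p = 0.730), which was -0.038 without VTA KO replicate 2. Averaged over both genotypes, SNc minus VTA was -0.47 (interval -0.82 to -0.11, adjusted p = 0.125 from limma). Averaged over both regions, the knockout effect was 0.37 (interval 0.019 to 0.73, adjusted p = 0.530). None of these passed the threshold.

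Grm4 and Grm6, the other group III genes, were near or under the signal minimum. Grm4, a receptor of presynaptic terminals best known from cerebellar parallel fibres, had signals of 5.41 and 5.41 in SNc WT, 5.66 and 5.98 in SNc KO, 5.45 and 5.68 in VTA WT, and 5.53 and 5.53 in VTA KO. Only 1 of these 8, on an SNc KO array, exceeded a linear 60, no group mean did, and Grm4 was not among the genes tested. In a fit with no signal filter its difference in SNc KO versus SNc WT was 0.41 (interval 0.056 to 0.77), with an adjusted p of 0.646.

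Grm6, the receptor through which ON bipolar cells of the retina sense glutamate, lay close to that minimum throughout, between 5.85 and 6.02, with 5 of 8 arrays over a linear 60. Its signals were 6.02 and 5.93 in SNc WT, 5.89 and 5.89 in SNc KO, 5.85 and 5.96 in VTA WT, and 5.93 and 5.93 in VTA KO. In the 4 comparisons between groups its differences lay between -0.088 and 0.070, and their intervals between -0.33 and 0.32 (adjusted p between 0.742 and 0.955 from limma). Of 5 partners of Grm6 in the ON bipolar cascade, Trpm1, the channel that this cascade gates, and Lrit3 were under the signal minimum, and limma called 0 of the other 3 in each comparison of the study, where 0 had an unadjusted p under 0.05 and the medians were -0.099, -0.014 and 0.095. Nyx, a proteoglycan of that synapse, had a difference of -0.29 in SNc WT versus VTA WT (adjusted p = 0.455 from limma), and the orphan receptor Gpr179 one of 0.13 for VTA KO (adjusted p = 0.757).

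Grm3, a group II receptor found on neurons and on astrocytes, was the member that differed most between the regions. Its signals were 9.47 and 9.19 in SNc WT and 8.19 and 8.37 in VTA WT. In the KO cells they were 9.43 and 8.92 in SNc and 8.35 and 7.64 in VTA. All 4 SNc arrays lay above all 4 VTA arrays, as they did for 8.63% of the probesets tested.

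The difference was 1.05 in SNc WT versus VTA WT (interval 0.38 to 1.73, or 2.08-fold, adjusted p = 0.144 from limma) and 1.18 in SNc KO versus VTA KO (interval 0.51 to 1.85, or 2.27-fold, adjusted p = 0.168). Averaged over both genotypes it was 1.12 (interval 0.64 to 1.59) with an adjusted p of 0.0527, so that limma called 0 of the 6 receptors there, with Grm3 and Grm7 at an unadjusted p under 0.05, where 1.56% of all probesets were called. Without VTA KO replicate 1 this value was 1.30 and without VTA KO replicate 2 it was 0.94, and both passed (adjusted p = 0.0412 and 0.0309). Without any other single array it lay between 0.99 and 1.25 and did not pass, with adjusted p-values between 0.136 and 0.166. The knockout effects on Grm3 were -0.16 in SNc (interval -0.83 to 0.52) and -0.29 in VTA (interval -0.96 to 0.39), with adjusted p-values of 0.942 and 0.775 from limma. The sign of the first turned without SNc KO replicate 2 (0.098) and that of the second without VTA KO replicate 2 (0.071).

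Grm3 is also a gene of astrocytes, so markers of astrocytes and radial glia are given beside it. Their summed linear signal over 11 genes was 2592 to 2679 in SNc WT, 3911 to 4155 in VTA WT, 2793 to 2822 in SNc KO and 2141 to 3141 in VTA KO, thus lowest in SNc WT and in 1 VTA KO array. Among 9 of them tested, limma called 0 in SNc WT versus VTA WT. There 0 had a higher and 7 a lower signal at an unadjusted p under 0.05, as had 8.59% and 10.2% of all probesets. In SNc KO versus VTA KO limma also called 0, with 1 higher (9.73% of all) and 1 lower (7.81%), and Aldoc had differences of 0.25 in WT and 0.51 in KO (adjusted p = 0.470 and 0.224). Gfap and Aldh1l1 were under the signal minimum. The part of these markers in the Grm3 difference was not tested. Sums over 10 ependymal and ciliated cell markers were lower in SNc than in VTA in both genotypes. They were 1046 to 1149 in SNc WT and 1152 to 1176 in SNc KO versus 4023 to 4719 in VTA WT and 1905 to 3010 in VTA KO. Of the 10, limma called 3 lower in SNc WT versus VTA WT, Dynlrb2, Mia and Ak7, as were 0.357% of all probesets. In SNc KO versus VTA KO it called 2 lower, as were 0.109% of all. Grm7 was lower in SNc as well and Grm3 higher, and the part of these markers in the differences of both receptors was not tested. In the same average over genotypes the 4 GABAergic markers had a median of -0.019. Of the 4, limma called 1 higher in SNc and 0 lower (0.597% and 0.968% of all probesets). The gene was Gad1 (0.996, adjusted p = 0.0450 from limma). Slc32a1 had a difference of 0.16, Gad2 one of -0.25 and Tal1 one of -0.20 (adjusted p = 0.265, 0.217 and 0.161).

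The single RefSeq window of Grm3, on the minus strand of chromosome 5 and written as for Grm8, is shown because Grm3 had the largest difference between regions among the receptors.
Grm3, chr5:9725303-9725602: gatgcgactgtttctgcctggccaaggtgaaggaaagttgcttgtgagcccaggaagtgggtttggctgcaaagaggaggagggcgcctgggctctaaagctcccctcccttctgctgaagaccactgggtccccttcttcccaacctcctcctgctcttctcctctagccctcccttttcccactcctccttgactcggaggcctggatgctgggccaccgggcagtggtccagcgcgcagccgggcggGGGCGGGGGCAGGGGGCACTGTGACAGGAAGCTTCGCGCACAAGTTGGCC
It held 11 CG dinucleotides and 63.7% G or C.

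Grm2, the other group II receptor and a presynaptic autoreceptor at many glutamatergic terminals, was nearly level across the groups. Its signals were 7.19 and 7.17 in SNc WT, 7.15 and 7.09 in SNc KO, 7.10 and 7.11 in VTA WT, and 7.11 and 7.26 in VTA KO. In the 4 comparisons between groups its differences lay between -0.066 and 0.080, with intervals between -0.32 and 0.33, so that a change of more than 0.33 on the log2 scale in either direction lay outside them (adjusted p between 0.751 and 0.945 from limma).

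Grm5, the group I receptor, is mainly postsynaptic and raises intracellular calcium through Gq. It was well above the signal minimum on all 8 arrays, at 9.16 and 9.25 in SNc WT, 9.59 and 9.24 in SNc KO, 9.03 and 9.05 in VTA WT, and 9.48 and 8.83 in VTA KO. The KO groups spanned their WT groups in VTA and overlapped them in SNc. Its differences were 0.16 in SNc WT versus VTA WT (interval -0.38 to 0.71), 0.21 in SNc KO versus SNc WT (interval -0.33 to 0.76), 0.12 in VTA KO versus VTA WT (interval -0.43 to 0.66) and 0.26 in SNc KO versus VTA KO (interval -0.28 to 0.81). None passed limma's test, with adjusted p-values between 0.553 and 0.898.

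Probesets whose signals most resembled those of each member over the 8 arrays were taken by Pearson r. For Grm8, Slc32a1 was followed by Stmn4, a stathmin of neurons, and Thsd7a (r = 0.97 each). For Grm3 they were Prkaa2, a catalytic subunit of the AMP-activated kinase, Agap1 and Hnrnpul2 (r = 0.97 to 0.98). For Grm7 they were Fgf4, Map7, a microtubule-associated protein, and the homeobox gene Otx1 (r = 0.95 to 0.97). For Grm5 they were Diaph2, Med9 and Fam210a (r = 0.95 to 0.96), for Grm2 Cep97, Map3k2 and the glutamate dehydrogenase Glud1 (r = 0.93 to 0.94), and for Grm6 Atn1, Creg2 and 5430401F13Rik (r = 0.94 to 0.95). With 8 arrays in 4 groups and 14665 probesets compared, values of this height describe these arrays and carry no test.

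The signalling partners of the receptors were read as lists. In the Gi/o pathway of groups II and III, which holds G protein subunits, R7 RGS proteins and Girk channels, all 16 genes were tested. Without Pitx3 in SNc 1 fell and 0 rose (0.0769% and 0.0724% of all probesets). At an unadjusted p under 0.05, 4 were higher and 2 lower (4.82% and 3.8% of all), and the list had a median difference of 0.016, against 0.014 over all probesets tested. The gene was Rgs6, a GTPase-activating protein for Gi/o subunits, which fell by 2.25 with an adjusted p of 0.0221 from limma, from 8.80 and 8.59 to 6.44 and 6.44. In VTA its signals were 7.92 and 7.62 for WT, then 5.86 and 6.23 for KO, a difference of -1.73 (adjusted p = 0.0656). Averaged over both regions Rgs6 fell by 1.99 (adjusted p = 0.00623), while Grm8 rose in the same average. In VTA KO versus VTA WT limma called 0 of the 16, where 1 was higher and 1 lower at an unadjusted p under 0.05 (4.73% and 5.51% of all), and the median was 0.049, against -0.023 over all probesets. In SNc WT versus VTA WT it called 0, with 4 higher and 1 lower at an unadjusted p under 0.05 (8.59% and 10.2% of all), and a median of 0.040 against 0.0080 over all probesets.

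In the Gq pathway of group I, 8 of 10 genes were tested and limma called 0 in each comparison of the study. In SNc WT versus VTA WT the median difference was 0.41, and 5 of the 8 were higher at an unadjusted p under 0.05, as were 8.59% of all probesets, with 0 lower. They included Plcb1, a phospholipase C, at 0.50, and Gnaq, the Gq subunit itself, at 0.48 (adjusted p = 0.105 and 0.106 from limma). Gnaq had signals of 10.08 and 10.12 in SNc WT and 9.59 and 9.66 in VTA WT, groups that did not overlap, as 29.6% of all probesets did not in that direction. In SNc KO versus SNc WT the median was -0.12, with 0 higher and 2 lower at an unadjusted p under 0.05 (4.82% and 3.8% of all), and in VTA KO versus VTA WT it was -0.031, with 0 in each direction.

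Among scaffolds and synaptic partners, 11 of 14 genes were tested and limma called 0 in each comparison of the study. The median differences were 0.15 in SNc WT versus VTA WT, 0.039 in SNc KO and 0.050 in VTA KO. At an unadjusted p under 0.05, 2 were higher and 3 lower in the first (8.59% and 10.2% of all probesets), 1 was higher and 0 lower in SNc KO (4.82% and 3.8% of all), and 0 differed in VTA KO. Homer2, which ties group I receptors to intracellular calcium stores, had a difference of 0.51 and Shank2, a postsynaptic scaffold, one of -0.53 in SNc WT versus VTA WT (adjusted p = 0.144 and 0.152 from limma).

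For glutamate supply and clearance, 11 of 16 genes were tested, and limma again called 0 in each comparison of the study, with medians between -0.044 and -0.022. At an unadjusted p under 0.05, 1 was higher and 3 lower in SNc WT versus VTA WT (8.59% and 10.2% of all probesets), 2 were higher and 2 lower in SNc KO (4.82% and 3.8%), and 0 were higher and 2 lower in VTA KO (4.73% and 5.51%). Slc17a6, the vesicular glutamate transporter of many midbrain neurons, had signals of 9.06 and 8.78 in SNc WT, 10.04 and 9.96 in SNc KO, 9.68 and 9.90 in VTA WT, and 10.12 and 9.94 in VTA KO. Its difference was 1.08 in SNc KO versus SNc WT (adjusted p = 0.0811 from limma) and -0.87 in SNc WT versus VTA WT (adjusted p = 0.0747). In VTA KO versus VTA WT it was 0.24, and averaged over both regions the knockout effect was 0.66. Neither was called by limma, but the average had an unadjusted p under 0.05 (4.59% of all probesets were higher at that level). Every KO array lay above every WT array, as for 1.96% of the probesets tested. Both SNc WT arrays lay below both VTA WT arrays, as they did for 28.7% of all probesets, and below both SNc KO arrays, as for 24%. SNc KO and VTA KO overlapped.

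The transporters that clear glutamate, Slc1a2 and Slc1a3, passed in the averages, close to the threshold. In each average 1 of the 11 genes was called lower and 0 higher. Of all probesets, 0.136% were called lower in the averaged knockout effect and 0.968% in the averaged region difference. How these calls depend on the setting was not examined. Slc1a2 fell by 0.75 with Pitx3 loss averaged over both regions (adjusted p = 0.0494 from limma), from 8.18 and 7.94 to 7.35 and 7.38 in SNc and from 8.17 and 8.11 to 7.22 and 7.44 in VTA. Slc1a3 was lower in SNc, with a difference of -0.65 averaged over both genotypes (adjusted p = 0.0490 from limma), of -1.10 between the WT groups and of -0.20 between the KO groups (adjusted p = 0.0504 and 0.509). Both genes are also on the list of astrocyte markers. Slc7a11, the cystine/glutamate exchanger that feeds group II receptors outside synapses, lay under the signal minimum, as did Folh1, which splits the group II agonist NAAG, and Slc17a7.

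**Figure D4:**
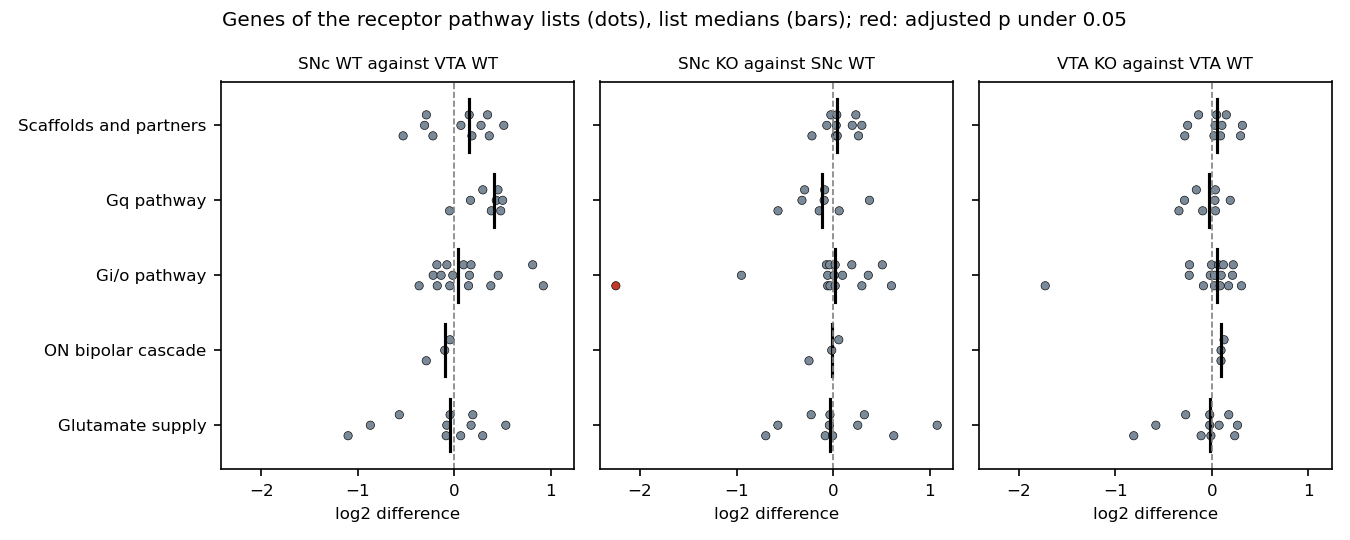
Log2 difference of each tested gene (dots) of 5 lists of receptor partners, with list medians (bars), in the 3 comparisons of the study. Red marks an adjusted p under 0.05, reached by Rgs6 in SNc KO versus SNc WT. The Gq list has its median at 0.41 in SNc WT versus VTA WT.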

How the data were processed

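RNA of sorted EGFP+ cells was amplified and hybridized to 8 Affymetrix Gene1.0ST arrays, 2 for each group. The authors summarised the probes with RMA (RMA Express by the methods), and the deposited values are on the log2 scale, 1 for each probeset and array. RMA normalizes between arrays and compresses differences of dim probesets. No source used here gives the version or the genome build. LPE (FlexArray), named in the methods too, was not used here. Symbols came from the platform annotation, in which 21789 probesets carry 1 gene symbol, 1621 several and 12102 none. All 7 receptor symbols matched the RefSeq gene table of GRCm38.p6 by gene ID.

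limma 3.58.1 (R 4.3.3) was fitted to all 8 arrays with 1 mean for each group (4 residual and 2.4 prior degrees of freedom), over the 22112 probesets with 1 or more group means at or above 60 on the linear scale. There were 7 contrasts, each two-sided, with Benjamini-Hochberg adjustment across all probesets tested in that contrast. Probesets were called at an adjusted p under 0.05. The fit was checked on simulated data. The precision is that of 2 arrays for each group. Array medians lay between 6.11 and 6.24.

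The receptors and the 5 lists of partners and 9 lists of markers were chosen with earlier results of these data known. For each gene of a list the probeset with the highest mean was used. All receptors are named. From each partner list, called genes are named, and otherwise the 2 with the smallest unadjusted p in the comparisons of the study, along with the 3 probesets most correlated with each tested receptor. Slc17a6 is named as a marker. Partner genes under the signal minimum were named after their values were seen. Alternatives were other signal filters, scaling, array subsets, the replicate number as a block, a variance trend, array weights and the thresholds of the study. A fit without both VTA KO arrays was added after seeing the data.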

Additional observations from a re-analysis of the deposited data

How the results depend on the processing

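The number of receptors called at an adjusted p under 0.05 from limma depended on the setting, through Grm8 and Grm3. In SNc KO versus SNc WT it was 1 (Grm8), and 0 with no signal filter (adjusted p = 0.05005), 0 with the arrays of the 2 groups alone (adjusted p = 0.114) and 0 with the replicate number as a block (adjusted p = 0.0692), where the difference was the same 1.22 each time. With single arrays left out it was 0 to 1 there, 0 to 1 for the knockout effect averaged over both regions, 0 to 1 in VTA KO versus VTA WT and 0 to 1 for SNc minus VTA averaged over both genotypes. In VTA KO versus VTA WT it was 0, and 1 (Grm8) after quantile normalization, after median subtraction, and at the thresholds of the study. For SNc minus VTA averaged over both genotypes it was 0, and 1 (Grm3) with a signal minimum of 120, after median subtraction and with a variance trend. At the thresholds of the study it was 2 in SNc WT versus VTA WT and 1 in SNc KO versus VTA KO, against 0 in both. A group left with 1 array was taken to vary like the others.

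The remaining counts did not change, and the sign of Grm8 in both KO comparisons, of Grm3 in both comparisons of SNc with VTA and of Grm7 between the WT groups and for SNc KO held under every alternative run. Small differences changed sign: after quantile normalization Grm6 in SNc KO versus VTA KO (0.060) and the difference between the knockout effects on Grm8 (-0.12), and after median subtraction Grm2 and Grm6 in SNc KO versus VTA KO (0.0087 and 0.033) and the Grm8 effect difference (-0.031). With single arrays left out, that Grm8 value ranged from -0.076 to 0.077. Signs also turned within the ranges with single arrays left out for Grm2 and Grm5 in SNc KO versus VTA KO (-0.14 to 0.012 and -0.060 to 0.58), Grm3 in SNc KO versus SNc WT (-0.41 to 0.098), and, for VTA KO versus VTA WT, Grm3 (-0.64 to 0.071), Grm5 (-0.21 to 0.44), Grm6 (-0.032 to 0.081) and Grm7 (-0.038 to 0.55). The causes were not tested.

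No source states whether replicate numbers pair the arrays. Deviations of equally numbered arrays correlated by 0.00577 to 0.098 between groups. Values over all probesets cannot show that arrays were unpaired, since an effect shared by a part of the genes could leave them low. Over all probesets the calls moved from 97 in SNc WT versus VTA WT to between 0 and 847, from 33 in SNc KO versus SNc WT to 0 to 89, from 2 in VTA KO versus VTA WT to 0 to 65, from 33 in SNc KO versus VTA KO to 0 to 1328, from 61 for the averaged knockout effect to 1 to 66, from 346 for the averaged region difference to 4 to 3123, and from 0 for the difference between knockout effects to 0 to 13. Median subtraction shifted the median difference of SNc WT versus VTA WT by 0.106, to which Grm3 (1.16) and Grm7 (-0.48) then relate, and moved the higher calls from 18 of 97 to 36 of 120 there, from 2 of 2 to 7 of 10 in VTA KO versus VTA WT (5 of 8 after quantile normalization) and from 132 of 346 to 567 of 804 in the averaged region difference.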
